A study of Homo sapiens with 2 samples.

Results

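The miR-30 family was examined through 8 of the 2038 mature miRNA names listed for each library. These were the 5 guide (5p) arms miR-30a-5p, miR-30b-5p, miR-30c-5p, miR-30d-5p and miR-30e-5p, and the 3 opposite (3p) arms miR-30a-3p, miR-30c-1-3p and miR-30e-3p, taken by name and not by value. The cells were FaDu (FadU in the labels), a line of human head and neck squamous cell carcinoma. The parental group was grown in RPMI-1640 with 10% FBS. The sphere group, labelled as sphere-derived cancer stem cells, was enriched for spheroid cells in DMEM-F12 that held N2 Plus Supplement and, at 10 ng/ml each, bFGF and EGF. Both media held penicillin and streptomycin, and both groups come from the same line, with no genetic change named. The study set out to identify key miRNAs of the spheres. Each group is 1 library, so no difference below has a replicate check, and medium, serum and growth form changed with the group.

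A miRNA gene is transcribed as a long precursor, from which a hairpin is cut and then a duplex of its 5p and 3p arms. One arm, the guide, is usually kept by an Argonaute protein and pairs with target mRNAs through its seed, while the other, the passenger, is mostly lost. The miR-30 guides share a seed and are abundant in epithelial cells. They are known as repressors of SNAI1, a driver of the epithelial to mesenchymal transition, and of the autophagy gene BECN1, and low miR-30 has been linked to self-renewal in breast tumour-initiating cells.

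The sequences show what the arms share and how little some of them differ, which bears on how reads were divided among them. The RefSeq table (GRCh38.p14) held 6 of the 8 members and also miR-30c-2-3p, the 3p arm of the second miR-30c hairpin. Capitals mark the seed, bases 2 to 8 from the 5′ end.
miR-30a-5p: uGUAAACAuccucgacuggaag
miR-30c-5p: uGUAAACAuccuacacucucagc
miR-30e-5p: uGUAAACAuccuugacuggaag
miR-30a-3p: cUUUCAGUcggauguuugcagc
miR-30e-3p: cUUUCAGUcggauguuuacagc
miR-30c-1-3p: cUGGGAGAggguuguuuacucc
miR-30c-2-3p: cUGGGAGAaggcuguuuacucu

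The 3 guides shown have the seed GUAAACA, and no mature sequence outside the family among the entries used has it. The 3p arms carry other seeds, UUUCAGU in miR-30a-3p and miR-30e-3p and UGGGAGA in the miR-30c arms, and a seed largely sets which mRNAs an arm pairs with. UGGGAGA is also the seed of miR-6788-5p, a name that is not among the 2038. With positions counted from 1 at the 5′ end, miR-30a-5p and miR-30e-5p differ by C13U alone and miR-30a-3p and miR-30e-3p by G18A alone. The miR-30c-1-3p and miR-30c-2-3p sequences differ by G9A, U12C and C22U. How the authors treated reads that fit more than one of these is not given in the sources used here, so the division of reads between miR-30a and miR-30e is uncertain.

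The hairpins show the arms in place, with the mature arms in capitals. The files name no coordinates and their build is hg19 in the submitters' processing notes, so the positions here are those of the RefSeq sequences on GRCh38.p14.
MIR30A: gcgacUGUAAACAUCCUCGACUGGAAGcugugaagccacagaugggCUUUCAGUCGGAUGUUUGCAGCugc
MIR30C2: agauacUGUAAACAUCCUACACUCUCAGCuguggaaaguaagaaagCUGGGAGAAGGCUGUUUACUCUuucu
MIR30E: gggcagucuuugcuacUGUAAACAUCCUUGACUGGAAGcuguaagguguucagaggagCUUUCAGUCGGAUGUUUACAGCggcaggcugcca
MIR30C1: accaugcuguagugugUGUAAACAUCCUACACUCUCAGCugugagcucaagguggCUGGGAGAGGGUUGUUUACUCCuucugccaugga

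MIR30A lies at chr6:71403551-71403621 and MIR30C2 at chr6:71376960-71377031, both on the minus strand. In GENCODE release 29 both overlap introns of the long non-coding genes LINC00472 and AL136164.2, and no exon of either. MIR30E (chr1:40754355-40754446) and MIR30C1 (chr1:40757284-40757372) lie on the plus strand of chromosome 1, 2837 bases apart, within NFYC, which encodes a subunit of the transcription factor NF-Y. They too overlap no exon of their host gene. The miR-30c-5p sequence is identical in MIR30C1 and MIR30C2, so its value sums the output of both hairpins.

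The files give 1 RPKM value per name, a read number per kilobase of mature sequence and per 1000000 reads. Over all names it summed to 26530004 for parental cells and 5509071 for spheres. Levels are given below as rescaled RPKM, in which each library sums to 1000000, since miRNAs made up an estimated 58.4% of the reads behind the authors' RPKM in parental cells and 12.1% in spheres. Estimated miRNA reads, from the commonest low value taken as 1 read on 22 nt, were 4542489 and 682359, so that 1 read is worth 0.220 and 1.47 rescaled RPKM. Names whose average of both libraries reached 10 rescaled RPKM were taken as measured, which 269 names and all 8 members did. The 8 fixed markers of squamous epithelium were all measured, and summed to 40383 (parental) and 95424 (spheres) rescaled RPKM. They did not all move alike, as miR-205-5p (21938 and 19458) and miR-200b-3p (975 and 790) were lower in spheres. The others were higher, miR-203a most of all (2698 and 35056.5). The 7 blood markers summed to 745 and 241 with 3 and 2 of them at 0. Of these only miR-486-5p counted as measured, and it was lower in spheres (log2 fold -1.84). By contrast, miR-150-5p (0 and 13.2), miR-142-5p (3.25 and 12.3), miR-451a (0.440 and 5.86) and miR-142-3p (0 and 2.80) were higher. The 2 endothelial markers summed to 192 and 445 with none at 0, and 5 mesenchymal markers to 28.9 and 76.5 with 2 and 0 at 0. The liver marker miR-122-5p was at 0 in both. The part of all these markers in the results on miR-30 was not tested.

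As a share of miRNA, the summed miR-30 guides were slightly higher in spheres, and all of the excess lay in miR-30a-5p, miR-30d-5p and miR-30e-5p. The 5 guides together held 3.55% of all rescaled RPKM in parental cells, with a 95% interval of 3.53% to 3.57%, and 4.49% (4.44% to 4.54%) in spheres, a ratio of 1.27 (1.25 to 1.28). miR-30a-5p, miR-30d-5p and miR-30e-5p together had a ratio of 1.32 (1.30 to 1.34), and miR-30b-5p and miR-30c-5p together one of 0.869 (0.834 to 0.905). The division of the guides in this way was made after their values were seen. These intervals, like all below, are counting intervals from estimated reads. They compare the libraries and not the conditions, and PCR copies without molecular identifiers are not independent molecules.

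The size of that excess depended on the scale. As deposited, the summed guides fell from 941465 to 247432 RPKM, which is 3.80-fold lower, because the miRNA total itself was lower in spheres. With other scalings of the miRNA signal the ratio ranged from 1.01 (upper quartile) to 1.18 (total without the most abundant miRNAs).

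miR-30a-5p, the most abundant member, stood at 13064 rescaled RPKM in the parental library and 17027 in that of spheres, a ratio of 1.30 (1.28 to 1.33). It ranked 12th of the 2038 names in the parental library and 11th in the sphere library. In deposited units it went from 346588 to 93804 RPKM. miR-30d-5p came next, at rank 13 in both libraries, with 11767 and 14905 rescaled RPKM and a ratio of 1.27 (1.24 to 1.29). Both guides were therefore among the major miRNAs of the line in either growth form.

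miR-30e-5p, encoded in NFYC, had the highest ratio of the guides. It went from 6282 to 9181 rescaled RPKM, a ratio of 1.46 (1.42 to 1.502), at rank 21 in both libraries. Its estimated reads were 28536 and 6265, so counting error is small beside the difference between these libraries.

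The remaining guides were lower as a share of miRNA. miR-30c-5p, from both miR-30c hairpins, stood at 2293 rescaled RPKM against 2089.8 in spheres, a ratio of 0.911 (0.862 to 0.963). miR-30b-5p had 2079.9 and 1711, a ratio of 0.822 (0.773 to 0.874). Their ranks were 42 and 40 for miR-30c-5p, and 44 and 47 for miR-30b-5p.

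The order of the guides, miR-30a-5p, miR-30d-5p, miR-30e-5p, miR-30c-5p and miR-30b-5p, was the same in both libraries. Every neighbouring pair in it was separated beyond counting error. The closest were miR-30c-5p over miR-30b-5p in parental cells, at 1.10 (1.07 to 1.13), and miR-30a-5p over miR-30d-5p, at 1.11 (1.10 to 1.12). In spheres these ratios were 1.22 (1.13 to 1.32) and 1.14 (1.11 to 1.17).

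**Figure D1:**
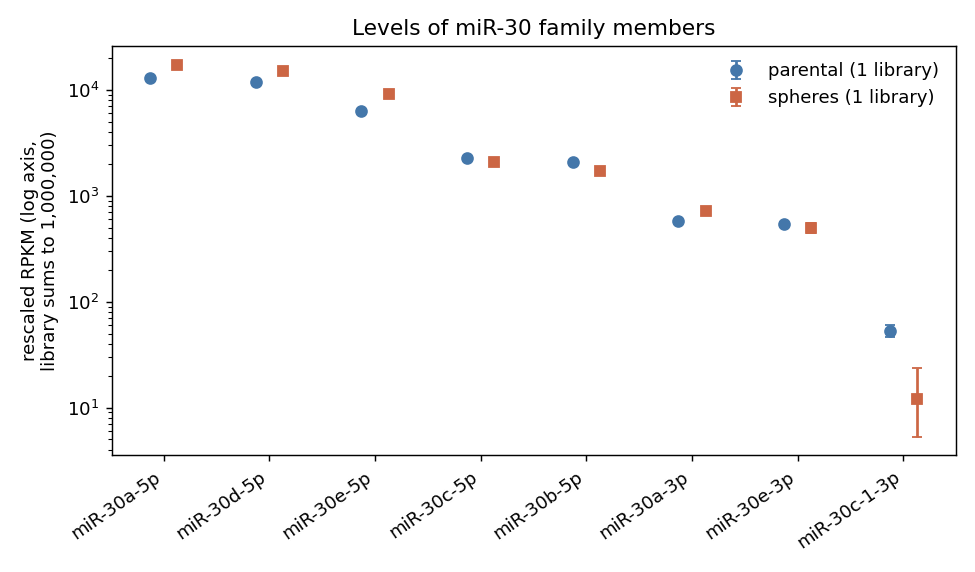
Rescaled RPKM (log axis) of the 8 members in the parental library (circles) and the sphere library (squares), 1 library each, with 95% counting intervals that are mostly smaller than the symbols. The guides span 2079.9 to 13064 in parental cells and keep their order in spheres, while miR-30c-1-3p is lowest in both and drops from 52.7 to 12.1.

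The makeup of the guides does not depend on how the libraries are scaled, and it shifted towards miR-30e-5p and away from miR-30b-5p and miR-30c-5p. Of the summed guides, miR-30e-5p took 17.7% in parental cells (17.5% to 17.9%) and 20.4% in spheres (19.99% to 20.9%). miR-30b-5p took 5.86% (5.75% to 5.98%) and 3.81% (3.60% to 4.03%). miR-30c-5p took 6.46% (6.34% to 6.58%) and 4.65% (4.42% to 4.89%). The major guides moved least in share. miR-30a-5p took 36.8% (36.6% to 37.0%) and 37.9% (37.4% to 38.5%), and miR-30d-5p took 33.2% in both libraries, with intervals of 32.9% to 33.4% and 32.7% to 33.7%.

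**Figure D2:**
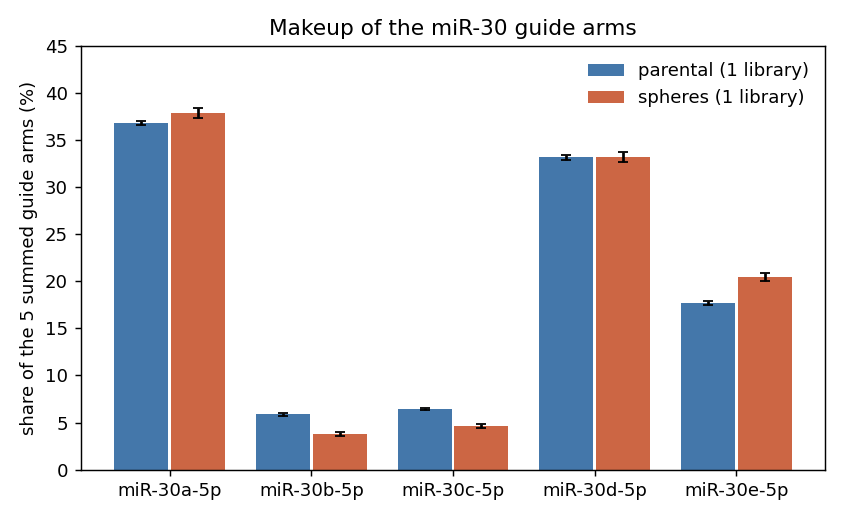
Share of each guide arm in the 5 summed guides, in percent, for the parental and the sphere library (1 library each), with 95% counting intervals as error bars. miR-30e-5p rises from 17.7% to 20.4%, miR-30b-5p falls from 5.86% to 3.81%, and the bars of miR-30d-5p are level at 33.2%.

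The pairs of guides give the same picture as differences in log2 ratio between spheres and parental cells. Of the 10 pairs of guides, 9 differed beyond counting error and none by 2-fold. The largest was that of miR-30b-5p minus miR-30e-5p, at -0.83 (-0.93 to -0.73). miR-30a-5p and miR-30d-5p were the pair whose interval held 0, at 0.04 (-0.00067 to 0.083), which does not show that they act alike. For miR-30a-5p minus miR-30e-5p, which are a single base apart, the difference was -0.17 (-0.21 to -0.12).

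Among the 3p arms, those of miR-30a and miR-30e were by far the more abundant. miR-30a-3p stood at 574 rescaled RPKM against 721 in spheres, a ratio of 1.26 (1.14 to 1.38). miR-30e-3p had 546 and 494, a ratio of 0.904 (0.805 to 1.01), whose interval includes 1. In parental cells these arms could not be told apart in level, with miR-30a-3p over miR-30e-3p at 1.05 (0.995 to 1.11). In spheres miR-30a-3p was higher, at 1.46 (1.27 to 1.68). Of all members, therefore, only this neighbouring pair, in the parental library, was not separated by counting error.

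miR-30c-1-3p, the 3p arm from the NFYC-hosted MIR30C1, was the one member that differed by more than 2-fold after rescaling. It had 1398 RPKM as deposited in parental cells and 66.6 in spheres, or 52.7 and 12.1 rescaled RPKM. It was 4.36-fold lower in spheres (2.20 to 10.1). The estimated reads were 239 and 8.25, against 36.0 expected in the sphere library at its parental share. Under this estimate 8.25 is not a whole number of reads on 22 nt, its mature length. Its rank went from 154 to 253.

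Counted over all members, 1 of 8 was at least 2-fold lower and none was at least 2-fold higher. Of all 269 measured miRNAs, 19.0% were at least 2-fold lower and 23.0% at least 2-fold higher, so 1 of 8 is near the background for lower calls. The log2 fold used for these calls adds 0.5 rescaled RPKM to each value. Its median was 0.10 over the 8 members, 0.34 over the 5 guides and 0.02 over all measured miRNAs, whose quartiles were -0.70 and 0.84. All 5 guides lay between those quartiles, from -0.28 (miR-30b-5p) to 0.55 (miR-30e-5p). As deposited, all 8 members were at least 2-fold lower, as were 79.6% of the measured miRNAs, while 6.32% of these were at least 2-fold higher. The members' deposited folds ran from 3.30-fold lower (miR-30e-5p) to 21.0-fold lower (miR-30c-1-3p), with a median log2 fold of -2.17 against -2.25 over all measured miRNAs.

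**Figure D3:**
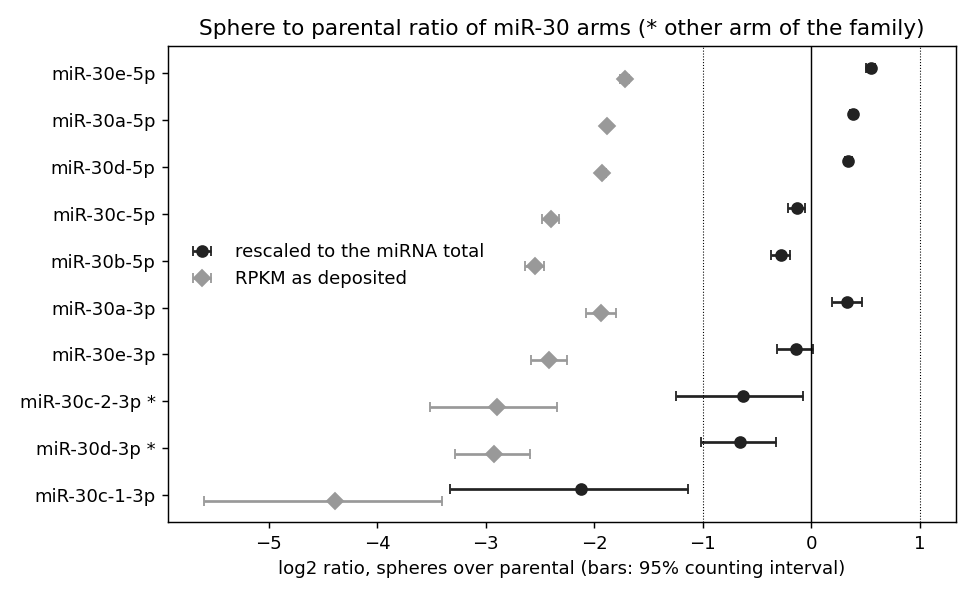
Log2 ratio of the sphere to the parental library for the 10 measured arms of the family, rescaled to the miRNA total (circles) and as deposited (diamonds), with 95% counting intervals and dotted lines at 2-fold. Asterisks mark arms of the family outside the 8 members. After rescaling, only miR-30c-1-3p lies wholly beyond a dotted line, and as deposited all 10 lie to the left of 0.

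The other arms of the family had fewer reads than miR-30a-3p and miR-30e-3p, and none of them counted as measured was at least 2-fold lower. miR-30d-3p, the passenger of miR-30d, was at 184 rescaled RPKM against 116 in spheres, 1.58-fold less (1.25 to 2.02). miR-30c-2-3p went from 64.3 to 41.4 and was 1.55-fold lower (1.05 to 2.37). miR-30b-3p, with 5.72 and 1.47 rescaled RPKM, was below the level counted as measured, on 26.0 and 1.00 estimated reads. Its sphere to parental ratio of 0.256 had an interval from 0.00625 to 1.56, which includes 1. Of the 6 passenger arms of the family, miR-30a-3p alone had a ratio above 1.

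The ratio of guide to passenger within a hairpin is independent of the scaling, and its change was not the same in all hairpins. miR-30a-5p exceeded miR-30a-3p by 22.8 times in parental cells and 23.6 times in spheres, a change of 1.04-fold (0.940 to 1.14). miR-30e-5p exceeded miR-30e-3p by 11.5 and 18.6 times, a change of 1.62-fold (1.44 to 1.82). miR-30c-5p exceeded miR-30c-1-3p by 43.5 and 173 times, a change of 3.97-fold (1.98 to 7.97). That last ratio is not confined to MIR30C1, since the guide value also holds the output of MIR30C2. For miR-30a the interval of the change included 1, and for miR-30e and this miR-30c ratio it lay above 1.

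For miR-30c the guide comes from both hairpins, so a ratio over both 3p arms compares like with like. miR-30c-5p exceeded the sum of miR-30c-1-3p and miR-30c-2-3p by 19.6 times in parental cells and 39.0 times in spheres, a change of 1.99-fold (1.42 to 2.80). The 3p arms themselves moved apart. miR-30c-1-3p stood at 0.820 times miR-30c-2-3p in parental cells and 0.292 times in spheres, a 2.81-fold drop, with an interval of the log2 change from -2.64 to -0.35. For miR-30d, the guide exceeded miR-30d-3p by 64.0 and 128 times, a change of 2.002-fold (1.59 to 2.52).

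A gain of the more abundant over the less abundant arm was common in the sphere library. Among 58 hairpins with both arms measured, the ratio was higher in spheres in 41 and lower in 17, with a median log2 change of 0.54. It was at least 2-fold higher in 32.8% and at least 2-fold lower in 10.3%. Some arms, such as miR-30c-5p, serve more than 1 hairpin, so the 58 ratios rest on 55 different more abundant arms. Of the 3 member hairpins 1 was at least 2-fold higher, close to the share over all hairpins. Counted from the largest gain, MIR30C1 ranked 8, MIR30E 26 and MIR30A 41 of 58. In these hairpins the 5p arm was the more abundant one, as in 33 of the 58.

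**Figure D4:**
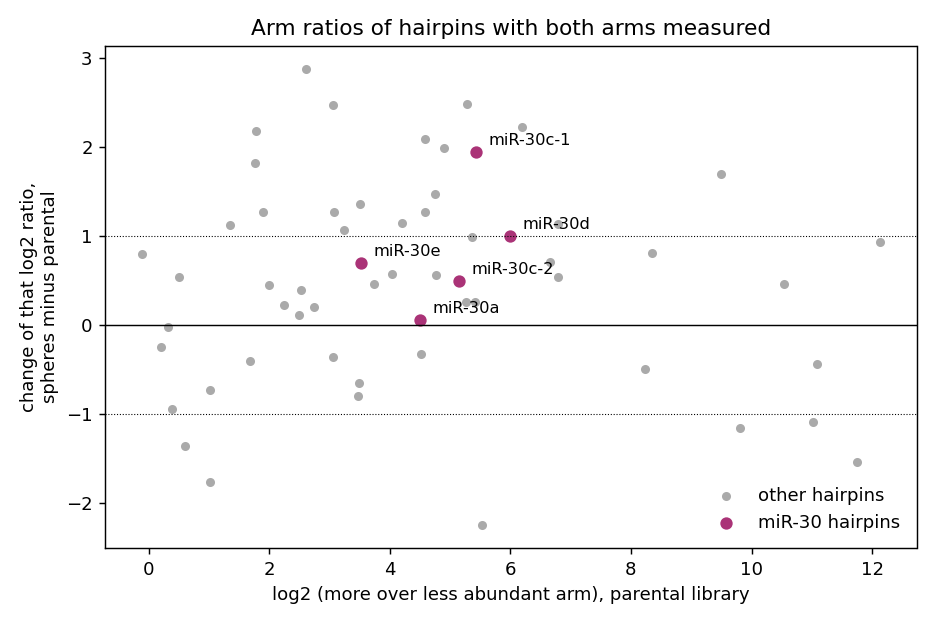
For 58 hairpins with both arms measured, the log2 ratio of the more to the less abundant arm in the parental library (x axis) against the change of that ratio in spheres (y axis), with dotted lines at a 2-fold change and 1 point per hairpin. The miR-30 hairpins lie from miR-30a near 0 up to miR-30c-1, and most of the other points also lie above 0.

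Families with other seeds give values to set beside the spread of the miR-30 guides. The log2 folds of the 5 miR-30 guides spanned 0.83 and those of 9 let-7 members 1.73. Those of 5 miR-200 members spanned 2.87 and those of 3 miR-29 members 0.62. A span, from lowest to highest, tends to widen with the number of members, so only miR-30 and miR-200 are of equal size here. The medians were 0.34 for miR-30, -0.39 for let-7, 0.66 for miR-200 and 0.94 for miR-29, with 0, 0, 2 and 1 members at least 2-fold higher and 0, 1, 0 and 0 at least 2-fold lower. With 1 library per condition these differences were not tested. In level, the miRNAs nearest to miR-30a-5p over both libraries were miR-31-5p, miR-26a-5p and miR-205-5p, at distances of 0.49, 0.70 and 0.77 on the log2 scale. miR-26a-5p had the fold most like that of miR-30a-5p among these, with 9562 and 11770 rescaled RPKM and a log2 fold of 0.30 against 0.38. The most abundant miRNAs of the libraries were let-7a-5p in parental cells (243075 rescaled RPKM) and miR-21-5p in spheres (258655).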

How the data were processed

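Small RNA libraries were made with the TruSeq kit from 1 µg of total RNA with size fractionation, per the labels' protocols. The authors deposited RPKM values, as the headers name them, and hg19 is named in the submitters' processing notes. No source used here names the aligner, the miRNA annotation or the treatment of shared reads. The files hold no counts, so no count model was used.

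Each column was rescaled to sum to 1000000. Log2 folds use a prior of 0.5. Reads were estimated as RPKM divided by the commonest value above 0 (5.84 parental, 8.07 spheres), taken as 1 read on 22 nt, which the files do not state. A value of 0 allows 3 reads, or 0.660 and 4.40 rescaled RPKM. Ratios and shares have exact Clopper-Pearson 95% intervals, and changes of ratios normal-approximation ones. With 1 library per group there is no test between conditions. Functions were tested on simulated data (Python 3.11.15, SciPy 1.17.1). RefSeq sequences, used without the chromosome 8 entries, matched 1714 of the 2038 names.

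Named miRNAs are the members, the other arms of their hairpins, names sharing a seed, the 3 nearest in level to the most abundant guide, the let-7, miR-29 and miR-200 families and the top miRNA of each library. Members and lists were chosen with earlier results of these data known. Blood, endothelial, mesenchymal, liver, squamous, muscle and neural markers were summed. The 4 muscle markers summed to 2.05 and 17.9 rescaled RPKM and the 3 neural ones to 359 and 434.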

Additional observations from a re-analysis of the deposited data

How the results depend on the processing

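The call of miR-30c-1-3p as lower held under all 4 alternative scalings, a prior of 5, no filter and the demand that its whole interval lie beyond 2-fold. It was lost at a mean of at least 100, which leaves the miRNA out and gives 0 members lower. RPKM as deposited gave 8 members lower. The ratio of the summed guides was 1.10 with the trimmed mean, 1.10 with the median of ratios, 1.01 with the upper quartile, 1.18 without the most abundant miRNAs and 0.263 as deposited. The signs of all 8 log2 folds held under the 4 alternative scalings, though miR-30a-3p (0.01), miR-30d-5p (0.02) and miR-30a-5p (0.06) came close to 0 with the upper quartile. All 8 were negative as deposited. Over all measured miRNAs, 62 were higher and 51 lower, against 17 and 214 as deposited, 193 and 180 with no filter, 23 and 18 at a mean of at least 100, and 45 and 17 with whole intervals beyond 2-fold. Without miR-30c-5p the shares of the guides rose by construction, in parental cells to 39.4% (miR-30a-5p), 6.27% (miR-30b-5p), 35.5% (miR-30d-5p) and 18.9% (miR-30e-5p), and in spheres to 39.8% (miR-30a-5p), 34.8% (miR-30d-5p) and 21.4% (miR-30e-5p). Reads by mature length put miR-30c-5p, 1 nt longer than miR-30a-5p and miR-30e-5p, at 6.74% in parental cells. For miR-30b-5p and miR-30d-5p, without a sequence here, 22 nt was assumed. The changes of arm ratio stayed within their intervals under each alternative run. No paired analysis was possible because each group is a single library, so no replicate could be left out either. The smaller number of sphere reads limits the 3p arms other than those of miR-30a and miR-30e.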

Other observations

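Of the 58 hairpins with both arms measured, 53 lay outside the miR-30 family. The median log2 fold of their 53 less abundant arms was -0.48. At least 2-fold lower were 18 of these arms, or 33.96%, and 4 were at least 2-fold higher, against 19.0% lower and 23.0% higher over all measured miRNAs. This difference was not tested. The largest gain of the more abundant arm was that of miR-141, at 2.88 in log2, followed by miR-200a at 2.49, and the largest loss that of miR-125b-2, at -2.25. These hairpins were picked after their values were seen. The miR-125b-2 ratio uses miR-125b-5p, which is also the 5p arm of miR-125b-1. Against miR-125b-1-3p the same arm gained 1.27 in log2. The log2 fold of miR-125b-5p itself was -0.14, against 2.11 for miR-125b-2-3p and -1.41 for miR-125b-1-3p. The ratios thus moved mainly through their 3p arms. How much of miR-125b-5p came from each hairpin is not known, so neither ratio is that of a single hairpin.

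The first base also differed between more and less abundant arms in RefSeq sequences. Of 51 more abundant arms with a sequence, 56.9% began with U and 19.6% with C, and of 47 less abundant arms 17.0% began with U and 42.6% with C. The miR-30 guides shown begin with U and their 3p arms with C.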
